A study of Homo sapiens with 6 samples.

Results

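The genes described here are those that the deposited table of A549 cells annotates with the term extracellular matrix organization. The rule took every row that carries the term and left out symbols that begin with SERPIN, CDH or PCDH, of which there were 0 among these rows. It found 77 genes of the 4546 in the table. A549 is an established human lung adenocarcinoma line. RNA was sequenced from 3 libraries of cells given mitoxantrone (a topoisomerase II poison used against cancer) at 50 nM for 48 hours, and from 3 libraries of cells given the solvent DMSO at 1 in 1000 for 48 hours. The labels name no other agent or allele, and they do not say whether the libraries came from separate cultures. All p-values therefore measure the spread between these libraries, which may be technical.

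The extracellular matrix is the mesh of proteins and sugar chains that surrounds cells. Epithelial cells rest on a basement membrane, a sheet of laminins and type IV collagen linked by perlecan and agrin, and hold on to it through integrins and syndecans. Fibronectin, fibrillins and collagens of connective tissue form the fibres beyond it, and metalloproteinases and cathepsins cut these proteins while TIMP proteins inhibit the metalloproteinases. In the lung the matrix carries the alveolar wall, and its make-up changes in scarring and in tumours.

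The table lists genes that had already passed a threshold of the authors on these same libraries. In the authors' deposited table the smallest absolute log2 fold change is 1 and the largest adjusted p is 0.0497. A gene of the matrix that is not listed is not known to be unchanged. Library totals were 16681380 to 19352443 reads with mitoxantrone and 20380674 to 21781220 with DMSO. The 77 genes held 1.06% to 1.13% of a mitoxantrone library and 0.469% to 0.480% of a DMSO library. Levels are given as FPKM, fragments scaled to gene length and to the library's reads, which allows genes to be compared. Fold changes are ratios of group means of normalized counts (reads divided by a library's size factor). Ratios with exact 95% limits, and bounds for genes with no DMSO read, instead use each group's summed reads over its summed size factors. Log2 fold changes with their standard errors (SE) come from edgeR's quasi-likelihood fit of the whole table. With bulk RNA, a change in the number of cells that make a transcript and a change per cell cannot be told apart.

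Most of these matrix genes were higher after mitoxantrone. Of the 77, 66 were higher and 11 lower at an adjusted p of 0.05 in edgeR, beside 58.9% of all listed genes higher and 41.1% lower. Every one of the 4546 listed genes passed this test (100%). They had been selected on the same libraries, so passing it is no independent evidence for any gene. With DESeq2's own scaling of this table, 45.8% of the listed genes called were higher, and the matrix genes were 51 higher and 11 lower. The 15 that then did not pass were LAMA2, OLFML2B, SPOCK2, EFEMP2, FBLN5, MUSK, DMD, LRP4, SDC2 and 6 collagens. The median log2 fold change was 1.45 for the matrix genes and 1.20 for the whole table, and the matrix median stayed at 1.45 with genes that had no read in DMSO set at their lower bound. The groups did not overlap in 76 of the 77, beside 98.3% of all listed genes. A log2 fold change of at least 2 was found in 24 of the 77 genes, beside 26.6% of all listed genes, and one of at most -2 in 1 of the 77, beside 12.2%. Within a direction these were 36.4% of the higher matrix genes, beside 45.2% of all higher genes, and 9.09% of the lower ones, beside 29.7% of all lower genes. Among genes with a mean of at least 50 normalized counts in the higher group, 44 matrix genes were higher and 11 lower (80.0% higher), beside 47.2% higher in the whole table. The other 22 matrix genes, all scarcer, were higher, beside 78.9% of the 1678 listed genes that were as scarce.

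**Figure D1:**
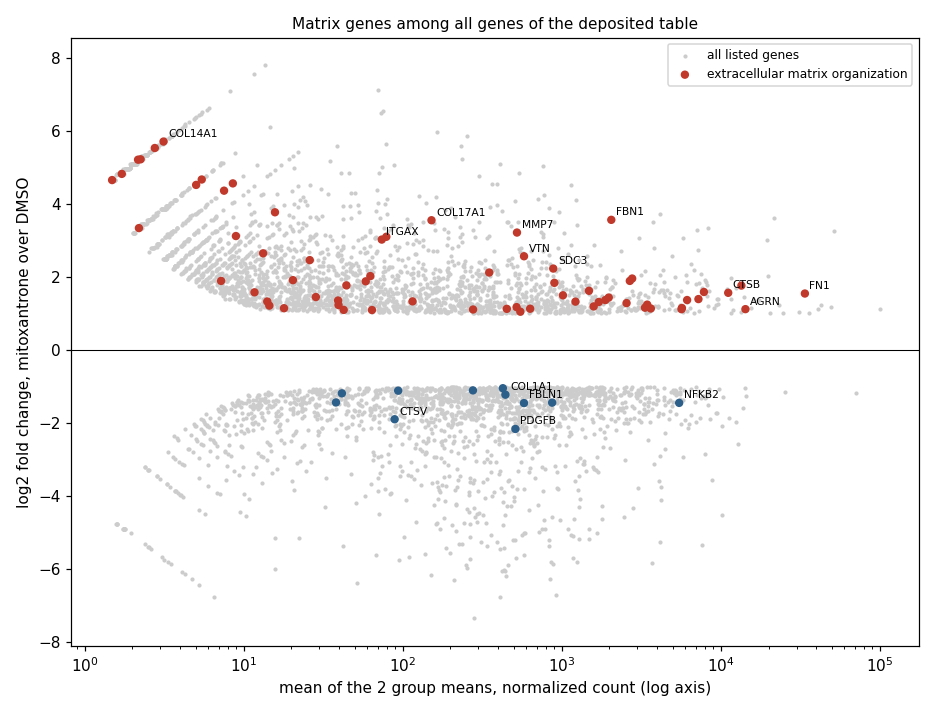
The horizontal axis is the mean of the mitoxantrone and DMSO means in normalized counts (log axis) and the vertical axis the log2 fold change, mitoxantrone over DMSO; grey points are all 4546 listed genes, red points matrix genes that were higher and blue points those that were lower. The 66 red points run from a handful of reads to FN1, and the 11 blue points lie between log2 fold changes of -2.16 and -1.04.

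Sequences upstream of a few of these genes are shown because the genes moved together, moved strongly or had the most reads. RefSeq promoter windows of GRCh38.p14, 250 bases before to 50 after a start, were found for 56 of the 77 genes, 84 windows in all. COL4A5 and COL4A6, both higher, encode chains of type IV collagen and lie head to head on chromosome X, where the deposited table leaves 346 bases between them. Their windows overlap by 121 bases on opposite strands, given in capitals (COL4A5, plus strand, chrX:108439588-108439887; COL4A6, minus strand, chrX:108439409-108439708). COL4A6 has a further window, which is not printed.
COL4A5: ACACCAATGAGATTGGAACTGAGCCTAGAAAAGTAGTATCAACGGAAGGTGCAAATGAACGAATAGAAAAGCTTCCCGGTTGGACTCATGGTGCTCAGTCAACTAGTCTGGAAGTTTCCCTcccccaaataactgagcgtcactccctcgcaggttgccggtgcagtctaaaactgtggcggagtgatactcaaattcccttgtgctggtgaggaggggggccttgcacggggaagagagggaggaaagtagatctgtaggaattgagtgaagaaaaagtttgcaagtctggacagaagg
COL4A6: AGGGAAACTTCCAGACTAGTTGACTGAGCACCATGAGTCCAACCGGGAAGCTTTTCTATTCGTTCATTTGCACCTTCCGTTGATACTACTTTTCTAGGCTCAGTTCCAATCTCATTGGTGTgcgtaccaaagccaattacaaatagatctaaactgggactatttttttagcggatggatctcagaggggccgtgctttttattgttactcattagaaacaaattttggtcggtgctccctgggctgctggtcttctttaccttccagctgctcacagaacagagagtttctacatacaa

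MMP7 had one of the strongest rises and FN1 the most reads of these genes. Their windows are printed with matches to 4 short motifs in capitals, searched on both strands (MMP7, minus strand, chr11:102530698-102530997; FN1, minus strand, chr2:215436019-215436318). The motifs were TGANTCA, which AP-1 factors bind, TGACGTCA, the cyclic AMP response element, TATAAA, the TATA box, and GGGCGG, the GC box. MMP7 has TGAGTCA 67 bases and TATAAA 30 bases before its start. FN1 has TGACGTCA 183 bases before its start and GGGCGG at 6 places, which overlap in part.
MMP7: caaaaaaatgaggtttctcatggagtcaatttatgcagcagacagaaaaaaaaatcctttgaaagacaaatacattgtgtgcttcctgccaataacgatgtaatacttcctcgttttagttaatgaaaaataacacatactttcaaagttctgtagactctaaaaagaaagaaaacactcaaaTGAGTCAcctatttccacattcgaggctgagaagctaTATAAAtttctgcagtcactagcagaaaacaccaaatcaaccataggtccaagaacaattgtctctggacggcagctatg
FN1: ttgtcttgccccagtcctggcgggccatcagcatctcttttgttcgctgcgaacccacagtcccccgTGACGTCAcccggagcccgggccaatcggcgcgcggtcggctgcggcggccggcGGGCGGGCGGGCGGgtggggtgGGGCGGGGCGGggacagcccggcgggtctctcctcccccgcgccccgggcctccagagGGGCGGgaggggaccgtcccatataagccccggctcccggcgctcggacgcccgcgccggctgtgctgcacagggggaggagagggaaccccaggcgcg

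Over the 84 windows of matrix genes, TGANTCA was found in 7.14%, beside 7.71% of all 35116 windows. TGACGTCA was found in 2.38%, beside 1.85%, and TATAAA in 11.9%, beside 11.5%. GGGCGG was found in 54.8%, beside 45.0%. A match describes these letters and not a bound factor.

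Of the 77 genes, 9 encode basement membrane proteins, and all of these were higher, beside 58.9% of all listed genes. Their log2 fold changes were 1.12 to 1.88, with a median of 1.44. AGRN, agrin, a heparan sulfate proteoglycan of basement membranes, was the highest of them, at 98.2, 87.9 and 88.8 FPKM in mitoxantrone libraries and 46.9, 44.4 and 43.0 FPKM in DMSO libraries. The groups did not overlap, and AGRN rose 2.17-fold (log2 fold change 1.12 ± 0.06 SE; edgeR, adjusted p = 1.7e-20). HSPG2, perlecan, which links laminin and collagen networks, had 63.9, 56.5 and 57.4 FPKM with mitoxantrone and 19.98, 18.3 and 17.3 FPKM with DMSO. It rose 3.40-fold (1.76 ± 0.06; adjusted p = 2.3e-26), and mitoxantrone 1 was the highest library for both genes.

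The laminins are heterotrimers of an alpha, a beta and a gamma chain, and 5 of the matrix genes encode such chains. LAMB2, a beta chain, had 38.7, 35.4 and 35.8 FPKM with mitoxantrone and 18.2, 17.9 and 16.9 FPKM with DMSO, a rise by a log2 fold change of 1.14 ± 0.07. LAMB3, the beta chain of the epithelial laminin that anchors the epidermis, had 25.3, 23.1 and 23.8 FPKM with mitoxantrone and 8.92, 7.68 and 8.26 FPKM with DMSO, a 3.08-fold rise (1.62 ± 0.08; edgeR, adjusted p = 1.8e-22). The gamma chain gene LAMC3 was at most 1.26 FPKM in any library (1.33 ± 0.16). The alpha chain genes were scarcer. LAMA4 lay between 0.37 and 0.42 FPKM with mitoxantrone and between 0.09 and 0.13 with DMSO (1.88 ± 0.21), and LAMA2 had 48 reads over the mitoxantrone libraries and 20 over the DMSO libraries (1.58 ± 0.47, or 2.27 without DMSO 1). By level, LAMB2 and LAMB3 stood above these alpha and gamma chain genes in all 6 libraries.

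The head-to-head pair of collagen IV genes, whose shared upstream bases are printed above, rose to a similar extent. COL4A5 (ENSG00000188153; chromosome X, 107683074 to 107940775 as the table gives it, with no build named) had 16.9, 16.5 and 16.4 FPKM with mitoxantrone and 7.07, 6.12 and 6.36 FPKM with DMSO. COL4A6 (ENSG00000197565; chromosome X, 107386780 to 107682727) had 18.8, 17.8 and 18.5 FPKM with mitoxantrone and 8.07, 7.87 and 8.05 FPKM with DMSO. The log2 fold changes were 1.44 ± 0.07 and 1.29 ± 0.07 (edgeR, adjusted p = 1.3e-21 and 5.7e-21). The ratio of COL4A5 to COL4A6 in FPKM was 0.887 to 0.927 in mitoxantrone libraries and 0.778 to 0.876 in DMSO libraries, a narrow gap. No other chain of type IV collagen was listed.

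**Figure D2:**
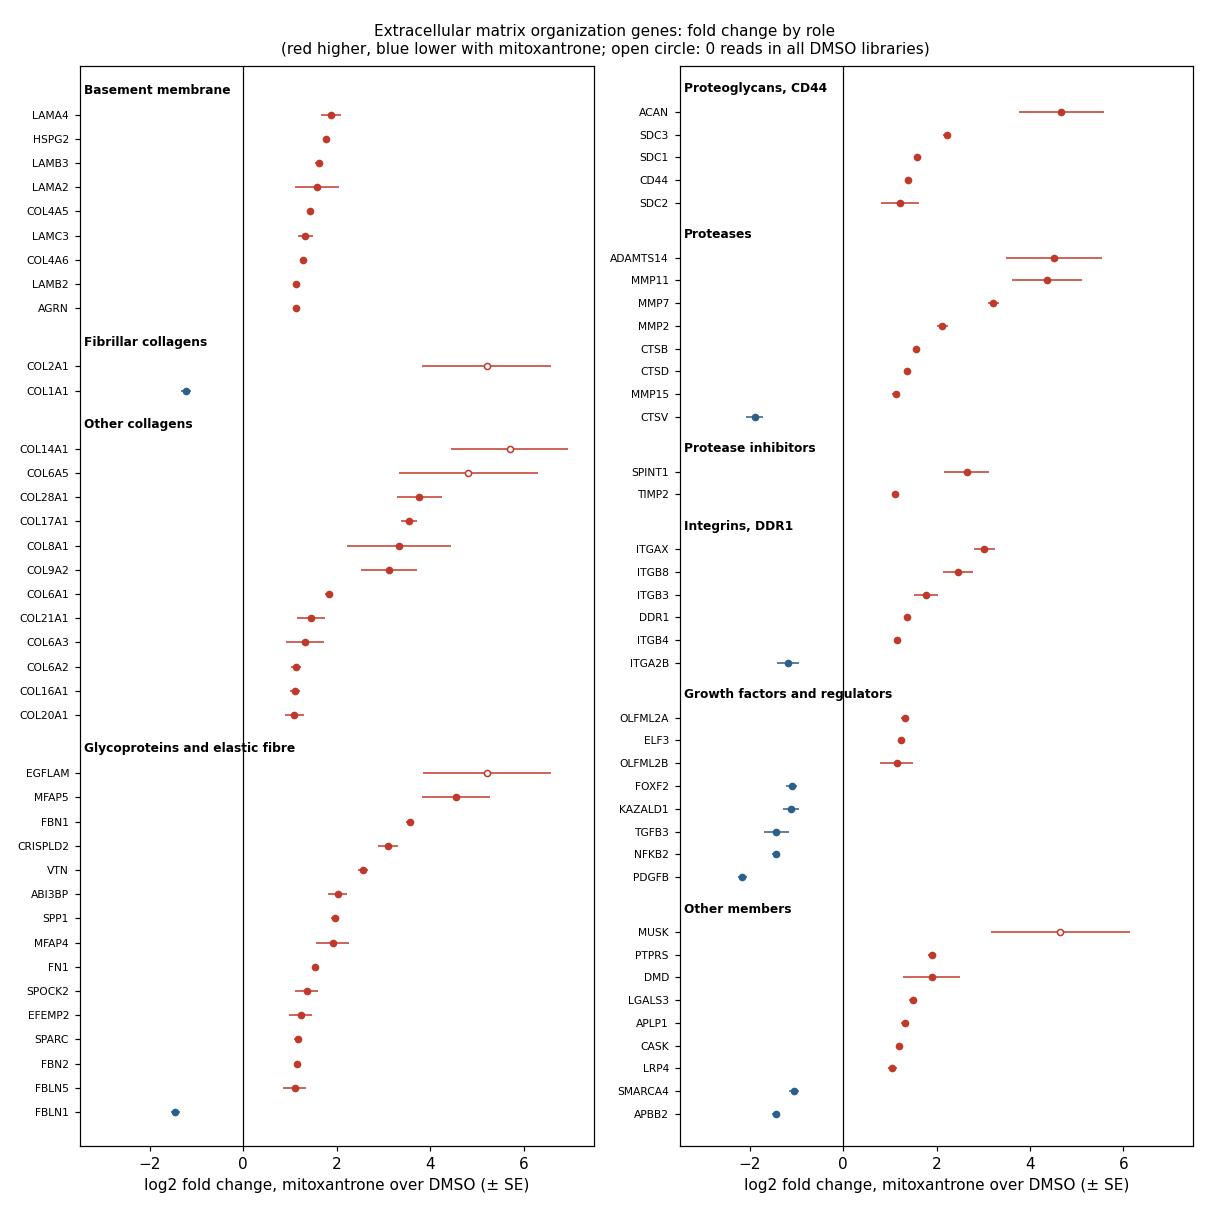
Each point is the log2 fold change of a gene, mitoxantrone over DMSO, with its SE as a bar, grouped by role; red is higher and blue lower with mitoxantrone. The 9 basement membrane genes all lie right of 0, and 5 of the 11 lower genes are in the group of growth factors and regulators. It draws 76 of the 77 genes. Open circles are genes with no read in any DMSO library, whose fitted value depends on the fit's small prior count.

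Of the other collagens that do not form fibrils by themselves, 12 of 12 were higher, beside 58.9% of all listed genes. Only 5 of the 12 averaged at least 50 normalized counts in the higher group. Among all listed genes scarcer than that, 78.9% were higher. Their median log2 fold change was 2.48, or 1.88 with the genes that had no DMSO read at their bound. With DESeq2's own scaling 6 of the 12 did not pass, namely COL6A5, COL8A1, COL21A1, COL6A3, COL16A1 and COL20A1. COL6A1, a chain of the beaded filaments of type VI collagen, was the highest of them, at 13.5, 13.4 and 12.8 FPKM with mitoxantrone and 3.76, 4.15 and 3.87 FPKM with DMSO. It rose 3.58-fold (1.84 ± 0.08; edgeR, adjusted p = 3.1e-23). Its neighbour and partner chain COL6A2, 93046 bases away on chromosome 21 in the deposited coordinates, had 6.29, 5.65 and 5.44 FPKM with mitoxantrone and 3.19, 2.65 and 2.59 FPKM with DMSO (1.13 ± 0.10). COL6A1 thus stood 2.15 to 2.37 times as high as COL6A2 in mitoxantrone libraries and 1.18 to 1.57 times as high in DMSO libraries.

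COL17A1, the transmembrane collagen of hemidesmosomes, changed most among collagens with ample reads. It had 2.21, 2.12 and 2.25 FPKM with mitoxantrone and 0.22, 0.13 and 0.24 FPKM with DMSO, an 11.9-fold rise (3.55 ± 0.17; edgeR, adjusted p = 3.3e-22). ITGB4, the integrin beta chain of the same junction, had 36.6, 33.2 and 33.2 FPKM with mitoxantrone and 16.5, 16.6 and 15.9 FPKM with DMSO (1.16 ± 0.07).

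The remaining collagens were low. COL16A1 was near 2 FPKM with mitoxantrone and near 1 with DMSO (1.11 ± 0.11), while COL20A1, COL21A1, COL28A1, COL9A2, COL6A3, COL8A1, COL6A5 and COL14A1 were under 0.5 FPKM in every library. COL28A1 had 80 reads over the mitoxantrone libraries and 7 over the DMSO libraries (3.77 ± 0.48), and COL9A2 had 44 with mitoxantrone and 6 with DMSO (3.12 ± 0.60). COL14A1 had 5, 5 and 7 reads with mitoxantrone and 0 in each DMSO library, which makes it at least 7.16-fold higher when DMSO is set at 3 reads over the group. COL6A5, with 9 reads with mitoxantrone and 0 with DMSO, was at least 3.79-fold higher by the same bound. COL8A1 had 11 reads with mitoxantrone and 1 with DMSO, and the ratio of 13.9 has exact 95% limits of 2.02 and 598 that cover counting error alone. Its log2 fold change was 3.34, or 5.06 without DMSO 1. These genes are at the limit of what the libraries can measure.

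The fibril-forming collagens went both ways. COL1A1, the main chain of type I collagen, was the single collagen that fell: it had 1.53, 1.36 and 1.21 FPKM with mitoxantrone and 3.51, 3.09 and 3.50 FPKM with DMSO (log2 fold change -1.22 ± 0.10; edgeR, adjusted p = 1.4e-14). COL2A1, the collagen of cartilage, had 12 reads with mitoxantrone and 0 with DMSO, at least 5.05-fold higher. COL1A1 is also a marker of fibroblasts. Of 14 fibroblast and mesenchymal markers 4 were listed, 3 higher (ACTA2, THY1 and COL6A3) and COL1A1 lower, and their summed FPKM was 23.1 to 26.2 with mitoxantrone and 6.15 to 6.23 with DMSO. ACTA2 made up nearly all of the sum with mitoxantrone, at 21.1 to 23.9 FPKM, beside 2.41 to 2.74 FPKM with DMSO. Defining markers such as DCN, LUM and PDGFRB were not listed, so their levels are not known here, and the part of such cells in these results was not tested. Of 16 epithelial and A549 markers 6 were listed, all higher, with a summed FPKM of 3501 to 3685 with mitoxantrone and 1477 to 1744 with DMSO.

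Among matrix glycoproteins and elastic fibre genes, 14 of 15 were higher, beside 58.9% of all listed genes. The median log2 fold change of the 15 was 1.91. FN1, fibronectin, which joins collagen and integrins, was the gene with the most reads, 135632 over the mitoxantrone libraries and 58727 over the DMSO libraries. It had 152, 142 and 145 FPKM with mitoxantrone and 53.6, 53.6 and 52.4 FPKM with DMSO (1.55 ± 0.05; edgeR, adjusted p = 7.5e-27). SPP1, osteopontin, a secreted ligand of integrins and CD44, had 97.9, 97.0 and 96.3 FPKM with mitoxantrone and 24.5, 26.6 and 28.5 FPKM with DMSO, a 3.88-fold rise (1.96 ± 0.07). VTN, vitronectin, another integrin ligand, had 17.1, 16.7 and 14.7 FPKM with mitoxantrone and 2.60, 3.03 and 3.04 FPKM with DMSO, a 5.93-fold rise (2.57 ± 0.10). By GENCODE 29, VTN lies wholly within the span of SARM1 on the opposite strand, and the labels do not say whether the libraries kept strand, so the gene of origin of its reads is uncertain.

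FBN1, a fibrillin of the microfibrils that scaffold elastic fibres, had the smallest p of the 77 genes. It had 12.2, 11.6 and 11.8 FPKM with mitoxantrone and 1.10, 0.97 and 1.12 FPKM with DMSO, an 11.8-fold rise (3.56 ± 0.08; edgeR, adjusted p = 8.6e-34). FBN2, the fibrillin best known from development, was higher than FBN1 in all 6 libraries and rose less. It had 30.9, 29.6 and 29.6 FPKM with mitoxantrone and 14.97, 14.2 and 13.8 FPKM with DMSO (1.15 ± 0.06). The ratio of FBN1 to FBN2 was 0.393 to 0.399 with mitoxantrone and 0.0684 to 0.0809 with DMSO. The microfibril-associated genes MFAP4 and MFAP5 were higher too, MFAP4 at 87 reads with mitoxantrone and 29 with DMSO (1.91 ± 0.36). MFAP5 had 45 reads with mitoxantrone and 2 with DMSO, a 28.4-fold ratio (exact 95% limits 7.43 and 242), and its log2 fold change of 4.56 became 7.05 without DMSO 1.

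The fibulins, which bind elastin and basement membrane proteins, split. FBLN1 fell 2.73-fold, with 2.27, 2.19 and 2.11 FPKM with mitoxantrone and 6.07, 6.20 and 6.78 FPKM with DMSO (-1.45 ± 0.09; edgeR, adjusted p = 2.2e-18). FBLN5 and EFEMP2, a further fibulin, were higher at 1.10 ± 0.24 and 1.23 ± 0.25 but stayed under 0.7 FPKM in every library. CRISPLD2, a secreted protein with a cysteine-rich domain, had 0.90, 0.88 and 0.91 FPKM with mitoxantrone and 0.13, 0.06 and 0.15 FPKM with DMSO, an 8.72-fold rise (3.10 ± 0.22). ABI3BP, a collagen-binding matrix protein, rose 4.07-fold, with 0.43, 0.47 and 0.49 FPKM with mitoxantrone and 0.13, 0.13 and 0.10 FPKM with DMSO (2.02 ± 0.21). SPARC, osteonectin, a collagen-binding glycoprotein, was between 7.20 and 8.13 FPKM with mitoxantrone and between 3.41 and 3.63 with DMSO (1.17 ± 0.09). SPOCK2, a related proteoglycan, stayed at or under 0.51 FPKM (1.36 ± 0.25), and EGFLAM, which binds dystroglycan, had 12 reads with mitoxantrone and 0 with DMSO, at least 5.05-fold higher.

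**Figure D3:**
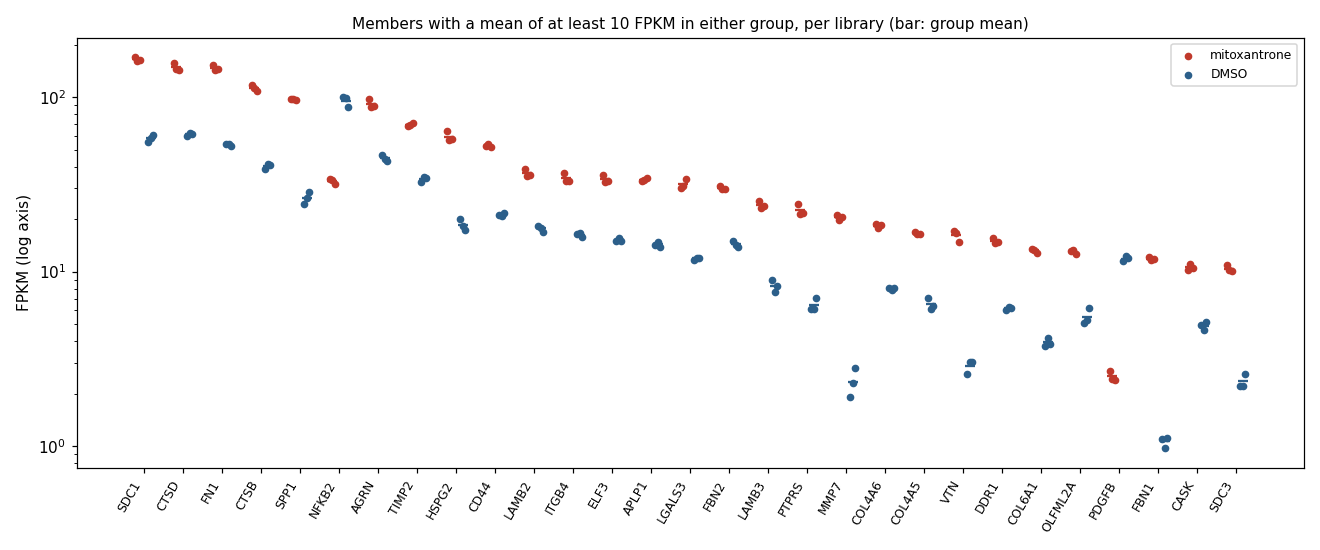
FPKM per library (log axis) of the 29 genes that averaged 10 FPKM or more in either group, ordered by their higher group mean; red points are mitoxantrone libraries, blue points DMSO libraries and bars group means. The red points are above the blue in 27 of them, and NFKB2 and PDGFB are the 2 in which they are below. Over all listed genes the groups did not overlap in 98.3%.

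The proteoglycan genes were higher in 5 of 5, beside 58.9% of all listed genes. SDC1, a syndecan, the transmembrane heparan sulfate proteoglycan of epithelia, was the highest of all 77 genes in mitoxantrone libraries. It had 169, 162 and 164 FPKM with mitoxantrone and 55.1, 58.2 and 61.0 FPKM with DMSO, a 3.01-fold rise (1.59 ± 0.06; edgeR, adjusted p = 2.1e-25). SDC3, the syndecan best known from nerve tissue, had 10.9, 10.3 and 10.03 FPKM with mitoxantrone and 2.22, 2.22 and 2.60 FPKM with DMSO, a 4.70-fold rise (2.23 ± 0.09). SDC1 was 15.6 to 16.3 times as high as SDC3 in mitoxantrone libraries and 23.5 to 26.2 times in DMSO libraries. CD44, the hyaluronan receptor, had 52.2, 53.7 and 51.7 FPKM with mitoxantrone and 21.1, 20.8 and 21.7 FPKM with DMSO (1.39 ± 0.06).

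SDC2 was the one matrix gene whose groups overlapped: it had 14, 10 and 32 reads with mitoxantrone and 14, 7 and 9 with DMSO (1.22 ± 0.42; edgeR, adjusted p = 0.0059, which did not pass without mitoxantrone 3). ACAN, aggrecan of cartilage, had 28 reads with mitoxantrone and 1 with DMSO, a 35.4-fold ratio (exact 95% limits 5.85 and 1447). Its log2 fold change of 4.67 became 6.39 without DMSO 1.

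Genes of matrix breakdown were higher in 7 of 8, beside 58.9% of all listed genes. MMP7, matrilysin, a small metalloproteinase made by epithelia, had 21.0, 19.8 and 20.7 FPKM with mitoxantrone and 1.9, 2.30 and 2.81 FPKM with DMSO, a 9.30-fold rise (3.22 ± 0.11; edgeR, adjusted p = 3.1e-27). MMP2, a gelatinase, had 6.87, 5.60 and 4.95 FPKM with mitoxantrone and 1.37, 1.49 and 1.38 FPKM with DMSO, a 4.36-fold rise (2.12 ± 0.12). MMP15, a membrane-bound metalloproteinase, was 9.27 to 10.9 FPKM with mitoxantrone and 4.62 to 5.08 with DMSO (1.13 ± 0.09). MMP11, stromelysin of tumour stroma, had 39 reads with mitoxantrone and 2 with DMSO, a 24.6-fold ratio (exact 95% limits 6.38 and 211). Its log2 fold change of 4.36 became 6.85 without DMSO 3. ADAMTS14, which trims procollagen, had 25 reads with mitoxantrone and 1 with DMSO. Of those 25 reads 18 came from mitoxantrone 1, and its log2 fold change of 4.52 became 3.23 without that library and 6.24 without DMSO 1.

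The cathepsins are proteases of the lysosome that can also be secreted. CTSD had 157, 146 and 143 FPKM with mitoxantrone and 59.7, 62.5 and 61.1 FPKM with DMSO (1.37 ± 0.06; edgeR, adjusted p = 8.7e-23), and CTSB had 117, 113 and 108 FPKM with mitoxantrone and 38.9, 41.3 and 41.0 FPKM with DMSO (1.57 ± 0.06). CTSV went the other way, at 1.11, 0.80 and 1.38 FPKM with mitoxantrone and 4.38, 3.91 and 4.81 FPKM with DMSO, and fell 3.74-fold (-1.89 ± 0.19; adjusted p = 2.3e-12). By GENCODE 29, 8 of the 77 genes overlap a listed gene on the opposite strand: LAMA4, HSPG2, LAMA2, ELF3, EGFLAM, EFEMP2, APLP1 and CTSD. CTSD is also nearly covered by a same-strand gene, so part of its reads is of uncertain origin. ITGB3 is nearly covered by a same-strand gene too, and TIMP2 shares 32308 of its 72411 bases with one. The same limit can hold for all of these genes.

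Both protease inhibitors in the set were higher, beside 58.9% of all listed genes. TIMP2, an inhibitor of metalloproteinases that also takes part in activating MMP2, had 68.2, 69.1 and 70.8 FPKM with mitoxantrone and 32.6, 34.8 and 34.3 FPKM with DMSO (1.12 ± 0.06; edgeR, adjusted p = 3.4e-20). MMP2 stood at 0.0700 to 0.101 of the TIMP2 level with mitoxantrone and at 0.0403 to 0.0428 with DMSO. SPINT1, an inhibitor of serine proteases, had 61 reads with mitoxantrone and 12 with DMSO (2.65 ± 0.48).

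**Figure D4:**
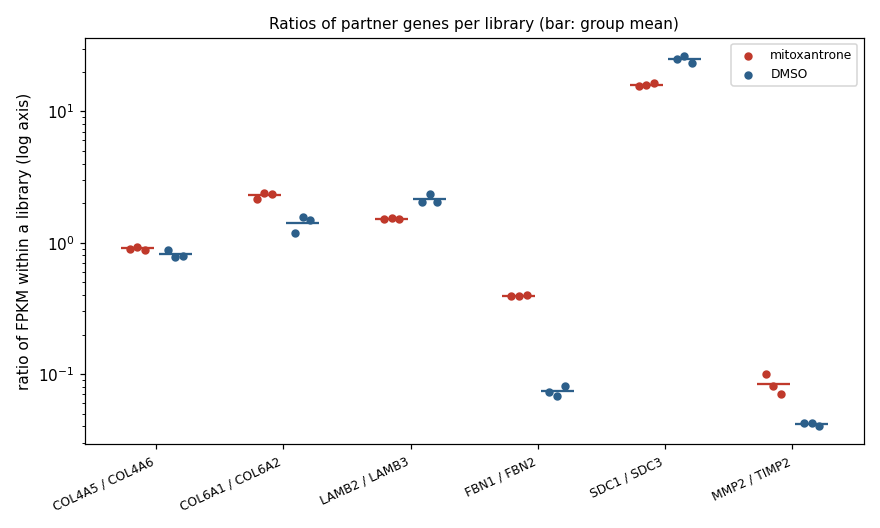
Ratio of the FPKM of 2 genes within each library (log axis), red for mitoxantrone and blue for DMSO, with bars at the group means. FBN1 to FBN2 moves furthest, 0.393 to 0.399 with mitoxantrone and 0.0684 to 0.0809 with DMSO, and COL4A5 to COL4A6 least.

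The pairs in the plot of ratios were chosen after their values were seen, and the ratios are descriptions with no test. LAMB2 was 1.51 to 1.54 times as high as LAMB3 with mitoxantrone and 2.04 to 2.33 times with DMSO. In none of the 6 pairs did the ratios of the groups overlap, although for COL4A5 to COL4A6 the groups came as close as 0.887 in mitoxantrone 3 and 0.876 in DMSO 1.

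Of the matrix receptors outside the syndecans, 5 of 6 were higher, beside 58.9% of all listed genes. DDR1, a receptor tyrosine kinase that collagen activates, was 14.6 to 15.6 FPKM with mitoxantrone and 6.02 to 6.23 with DMSO (1.37 ± 0.07; edgeR, adjusted p = 4.0e-21). The integrin beta chains ITGB3 and ITGB8 were scarce, under 0.9 FPKM in every library, and higher at 1.77 ± 0.26 and 2.46 ± 0.32. ITGA2B, the platelet integrin alpha chain that pairs with ITGB3, fell 2.27-fold, with 68 reads over the mitoxantrone libraries and 196 over the DMSO libraries (-1.19 ± 0.24). ITGAX, an integrin alpha chain known from myeloid cells, had 1.05, 0.91 and 1.09 FPKM with mitoxantrone and 0.17, 0.06 and 0.16 FPKM with DMSO, an 8.28-fold rise (3.02 ± 0.23). Of 11 leukocyte markers 3 were listed, ITGAX, CD14 and CD8A, all higher, with a summed FPKM of 3.85 to 4.14 with mitoxantrone and 0.87 to 1.04 with DMSO. The pan-leukocyte marker PTPRC was not listed, and the part of such cells in the ITGAX result was not tested. Of 8 endothelial markers 4 were listed, 3 higher from few reads (CDH5, TEK and VWF) and ESAM lower, with a summed FPKM of 0.56 to 0.70 with mitoxantrone and 3.11 to 3.45 with DMSO.

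Growth factors and regulators were the one group with more lower than higher genes, 5 lower and 3 higher of 8. Of all listed genes 41.1% were lower. NFKB2, a subunit of the transcription factor NF-kappaB, was the highest of all 77 genes in each DMSO library, at 99.8, 99.3 and 87.6 FPKM, and had 34.0, 33.4 and 31.7 FPKM in mitoxantrone libraries. It fell 2.72-fold (-1.45 ± 0.07; edgeR, adjusted p = 6.5e-23). PDGFB, a chain of platelet-derived growth factor, which drives fibroblasts and smooth muscle cells, had 2.71, 2.43 and 2.38 FPKM with mitoxantrone and 11.5, 12.2 and 11.9 FPKM with DMSO. With a 4.46-fold fall it was the most reduced matrix gene (-2.16 ± 0.10; adjusted p = 5.3e-23).

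TGFB3, a transforming growth factor beta, had 55 reads over the mitoxantrone libraries and 189 over the DMSO libraries (-1.43 ± 0.27; edgeR, adjusted p = 4.9e-06). By GENCODE 29 it lies wholly within IFT43 on the opposite strand. FOXF2, a forkhead factor of lung mesenchyme, was 3.76 to 4.30 FPKM with mitoxantrone and 8.84 to 9.80 with DMSO (-1.10 ± 0.11), and KAZALD1, a secreted relative of the insulin-like growth factor binding proteins, fell by 1.11 on the log2 scale. ELF3, an epithelial ETS factor, was higher, at 36.0, 32.8 and 33.1 FPKM with mitoxantrone and 14.9, 15.7 and 15.1 FPKM with DMSO (1.24 ± 0.07). The olfactomedin-like secreted genes OLFML2A and OLFML2B were higher at 1.33 ± 0.08 and 1.14 ± 0.35.

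**Figure D5:**
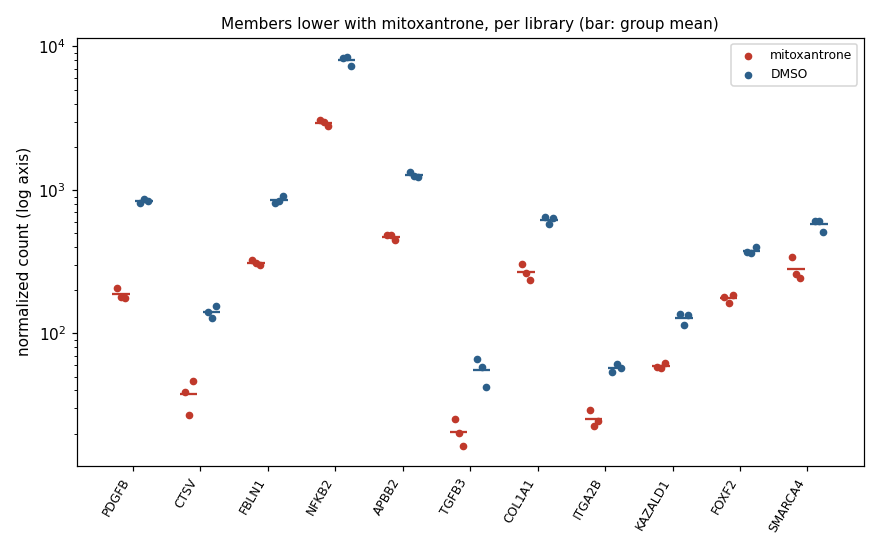
Normalized count per library (log axis) of the 11 matrix genes that were lower, ordered by log2 fold change; red points are mitoxantrone libraries, blue points DMSO libraries and bars group means. In each of the 11 all mitoxantrone libraries lie below all DMSO libraries, and the groups did not overlap in 98.3% of all listed genes either.

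The last 10 genes carry the term although most are receptors or signalling proteins rather than matrix parts. Of these, 8 were higher, beside 58.9% of all listed genes. PTPRS, a receptor phosphatase that binds heparan and chondroitin sulfate, had 24.5, 21.3 and 21.6 FPKM with mitoxantrone and 6.09, 6.11 and 7.08 FPKM with DMSO, a 3.71-fold rise (1.89 ± 0.08; edgeR, adjusted p = 4.6e-25). LGALS3, a galectin that binds matrix sugars, had 30.1, 30.9 and 34.0 FPKM with mitoxantrone and 11.7 to 12 FPKM with DMSO (2.82-fold; adjusted p = 7.4e-21). APLP1, a relative of the amyloid precursor protein, had 33.2, 33.4 and 34.3 FPKM with mitoxantrone and 14.3, 14.9 and 13.9 FPKM with DMSO (1.32 ± 0.07).

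CASK, a scaffold that binds syndecans, was higher at 1.19 ± 0.07. The agrin receptor at the nerve-muscle junction is made of LRP4 and MUSK. LRP4 was at most 4.96 FPKM with mitoxantrone and 2.43 with DMSO (1.05 ± 0.10), while MUSK had 8 reads with mitoxantrone and 0 with DMSO, at least 3.37-fold higher. DMD, dystrophin, had 30 reads with mitoxantrone, 17 of them in mitoxantrone 1, and 10 with DMSO, and did not pass without that library (log2 fold change 1.89, or 1.21 without it). Lower were APBB2, an adaptor of the amyloid precursor protein (-1.44 ± 0.08), and SMARCA4, the ATPase of a chromatin remodelling complex (-1.04 ± 0.11), whose absolute change was the smallest of the 77.

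The annotation gives further terms that the rule did not use. The term for cell adhesion was carried by 28 of the 77 genes, 27 of them higher, while the other 106 listed genes with it split into 87 higher and 19 lower. The basement membrane compartment was given for 19, with 18 higher, while the other 10 listed genes with it split into 8 higher and 2 lower. The nucleus was given for 11 of the 77, with 6 higher and 5 lower. Among the other 1042 listed genes annotated to the nucleus 324 were higher and 718 lower. The matrix genes were long, with a median of 6619 bases in the table's length column, beside 3975.5 for all listed genes. The sum of FPKM over the 77 genes was 1406 to 1481 in mitoxantrone libraries and 662.6 to 670.8 in DMSO libraries. The 10 highest genes held 68.4% to 68.5% of it with mitoxantrone and 67.6% to 68.5% with DMSO. Over all listed genes the sum was 52205 to 52573 FPKM with mitoxantrone and 46495 to 47047 with DMSO.

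Other genes, taken from lists by role and not annotated with the term, are given by how many were listed. Not all of them encode matrix proteins. Those lists were chosen with earlier results known, and 58.9% of all listed genes were higher. Of 26 basement membrane genes in the list, 11 were in the table and all were higher. Outside the 77 these were NID2, a nidogen (1.44 ± 0.17), and LAMB4, a laminin beta chain that stayed at or under 0.11 FPKM (2.87 ± 0.69). Of 8 further proteases listed 8 were higher, among them the calpains CAPN1, CAPN2 and CAPN3. CAPN3 averaged only 5.57 normalized counts with mitoxantrone and 0.862 with DMSO. ADAMTS7, which cleaves cartilage oligomeric matrix protein, was at 1807 ± 81.2 normalized counts with mitoxantrone and 131 ± 16.5 with DMSO (mean ± SD, n = 3 each; log2 fold change 3.78 ± 0.10). Of 5 further proteoglycan and hyaluronan genes 5 were higher, with GPC1, a glypican, at 11472 ± 837 normalized counts with mitoxantrone and 3214 ± 147 with DMSO. Enzymes that modify collagen or heparan sulfate were 4 of 4 higher of 34 in the list. SULF2, a heparan sulfate sulfatase, had 5463 ± 291 normalized counts with mitoxantrone and 651 ± 31.1 with DMSO (3.07 ± 0.07), and TGM2, which crosslinks matrix proteins, 23211 ± 1792 with mitoxantrone and 9024 ± 278 with DMSO. No lysyl oxidase and no lysyl hydroxylase was listed.

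Further glycoprotein genes split into 8 higher and 4 lower. The lower ones were CTGF, a matricellular protein (-1.69 ± 0.07), and the 3 fibrinogen chains FGA, FGB and FGG (-1.36, -2.48 and -1.98). Further adhesion receptors split into 4 higher and 3 lower, with CEACAM1 at 3.84 ± 0.17 and ICAM1 at -2.06 ± 0.25. Further growth factors and regulators were 4 higher and 5 lower, the lower ones being PHLDB2, VEGFA, IL6, ETS1 and GREM1, from -1.16 to -2.92. Of 19 genes of the response to transforming growth factor beta 8 were listed, 6 lower and 2 higher. SMAD7, BHLHE40, ID2, SKIL, CTGF and COL1A1 were lower, from -1.05 to -1.69, and ACTA2 (3.23 ± 0.10) and FN1 higher.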

How the data were processed

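RNA was sequenced from 6 A549 libraries, 3 with mitoxantrone and 3 with DMSO. Groups and replicate numbers come from the sample titles. Tools named in the submitters' processing notes are HISAT2 2.0.1, SAMtools 0.1.19, cutadapt 1.9.1, Cufflinks 2.2.1, HTSeq 0.6.1 and DESeq2 with no version, and the genome build is not given in the sources used here. Whether RNA was enriched by poly(A) capture or by depleting rRNA is not settled by the labels' protocols.

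Per the file headers, the authors deposited raw counts and FPKM for each gene in each library. The authors also deposited a mean normalized signal over all libraries, a log2 fold change with a standard error (a score not tested here), a p-value and an adjusted p. The deposited table holds genes past a threshold.

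Size factors (0.827 to 0.980 with mitoxantrone, 1.08 to 1.17 with DMSO) were recovered from the raw counts and the deposited means, with a largest relative residual of 4.8e-10. Library totals were recovered from FPKM. edgeR 4.0.16 (R 4.3.3) fitted raw counts of all 4546 genes with these size factors, no covariate and no filter, with Benjamini-Hochberg adjustment and a threshold of 0.05. The SE is the log2 fold change divided by the root of the F statistic. Intervals and bounds cover counting error only.

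The 77 genes, the role lists and the marker lists were chosen with earlier results of these data known. Each gene was placed in 1 role. Values in every library were given for 30 genes, which had 50 or more normalized counts on average in the higher group, no overlap between groups, and a log2 fold change of at least 2 in size, at least 20 FPKM in either group, or the highest FPKM of their role. Some others are shown in the same way, chosen after their values were seen. Promoter sequences are RefSeq's (GRCh38.p14), matched for 56 genes. The alternatives were other scalings, DESeq2 1.42.0, limma 3.58.1 on log2 FPKM, a count filter, other thresholds, a replicate block and leaving out each library. The values of 1 of the 77 genes are not reported here, although the gene is in all counts.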

Additional observations from a re-analysis of the deposited data

How the results depend on the processing

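Over all alternatives, 0 of the 77 genes changed direction. These genes had been listed on the same libraries at an absolute log2 fold change of at least 1. That listing left little room for a reversal, and it also favoured passing the test against a 2-fold change. Calls of the 77 stayed at 66 higher and 11 lower with TMM, library totals, the replicate block, an adjusted p of 0.01 and DESeq2 with the recovered size factors. Library totals and that DESeq2 fit were added after the data were seen. Without 1 library they were 65 to 66 higher and 11 lower, and the median log2 fold change of the matrix genes was 1.41 to 1.52. DESeq2 with its own size factors from this selected table moved the median of all listed genes by -0.84 and TMM by -0.26. Under that DESeq2 fit 1580 listed genes were called higher and 1868 lower (45.8% of calls higher in place of 58.9%), and 51 matrix genes higher and 11 lower. The matrix median was then 0.61, beside 0.37 for the table, and 1.20 with TMM, beside 0.94. Against a 2-fold change 58 matrix genes were higher and 7 lower, beside 48.5% and 32.1% of listed genes, and FOXF2, KAZALD1, ITGA2B and SMARCA4 were the 4 lower genes that did not pass. limma gave medians of 1.06 with a pseudocount of 0.1 and 0.48 with 1, and called 63 and 53 higher and 11 lower. A filter of at least 10 counts in at least 3 libraries left 66 matrix genes, 55 higher and 11 lower. Libraries that share a number showed no common deviation (correlations -0.07, -0.07 and 0.03 over 2622 genes), and the replicate block gave 4546 calls. Leaving out 1 library moved the fold by over 1.5 times for 7 genes with at most 48 reads in a group: ADAMTS14, DMD, LAMA2, MFAP5 (7.05 without DMSO 1), COL8A1 (5.06) and ACAN (6.39 without DMSO 1), and MMP11 (6.85 without DMSO 3). The 32 genes under 1 FPKM in both groups are limited by depth, and 6 had no read in DMSO. For the 5 genes with 1 to 3 reads over the DMSO libraries, the log2 fold changes that the authors deposited were smaller than edgeR's. They were 2.80 for ACAN, 2.54 for ADAMTS14, 2.99 for MMP11, 3.18 for MFAP5 and 1.60 for COL8A1.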
